A study of Mus musculus with 6 samples.

Results

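The actin and myosin cytoskeleton was read here as 69 genes of the 14915 gene symbols in the deposited table, in B16F10 cells, a mouse melanoma line. The genes were taken by symbol: myosin heavy chains, myosin light chains and unconventional myosins by family name, the actins, the tropomyosins, and a set of actin binders that crosslink, bundle, sever or anchor filaments. Of the 69 symbols, 68 matched a mouse gene of the GENCODE annotation of mm10. ZBTB5-S127A cells (3 libraries), in which alanine replaces a serine of the transcription factor ZBTB5 that can be phosphorylated, were set against WT cells (3 libraries). Cells of both genotypes received TNFα, an inflammatory cytokine, with amino acids limited, so the libraries labelled S127A and WT were compared within treated cells. The design text asks how this phosphorylation site bears on inflammation-induced activation of mTORC1, a growth-controlling kinase complex. The labels do not say how the S127A line was derived, whether it is a single clone, or whether replicates came from separate cultures, so the spread between libraries may be technical.

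Actin filaments are polymers of actin that give a cell its cortex, protrusions and stress fibres. Non-muscle myosin II, built of heavy chains, essential light chains and regulatory light chains, slides filaments past each other and is switched on by phosphorylation of the regulatory light chain. Unconventional myosins work as single motors or tethers at membranes and organelles. In pigment cells, myosin Va holds melanosomes at peripheral actin through the adaptor melanophilin and the GTPase RAB27A. Crosslinkers such as filamins and α-actinins join filaments into networks, fascin packs them into tight bundles, cofilins and gelsolin sever them, and ezrin, radixin and moesin tie them to the plasma membrane.

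Values are TPM, transcript abundances corrected for gene length and library total, so levels of different genes can be set side by side. A change is given as S127A minus WT on the log2(TPM + 1) scale, where the change of a low gene comes out too small. Adjusted p-values are from limma over 10348 genes with a mean of at least 1 TPM, with 0.05 as the threshold. In bulk RNA, fewer cells of a type and less RNA per cell cannot be told apart. The libraries of both genotypes differed across the whole transcriptome, and the labelled melanoma identity was checked with melanocyte markers. All 7 markers passed the test and were lower in S127A, with a summed level of 26.8 to 32.4 TPM in the S127A libraries and 14911 to 15194 TPM in the WT libraries. Of 10 fibroblast markers 6 were tested, of which 5 rose and 1 fell. The 10 summed to 301 to 313 TPM in S127A, most of it COL1A2 (274.7 ± 6.56 TPM), and 16.2 to 17.2 TPM in WT. LUM and THY1 were at 0 in all S127A libraries. Immune markers summed to 48.4 to 51.1 TPM in S127A, nearly all of it CD14, and 7.04 to 8.22 TPM in WT, and PTPRC, the marker of all leukocytes, was at 0.1 TPM or less in every library. The libraries labelled S127A thus lack nearly all of the melanocyte expression of the labelled line, and whether they come from B16F10 cells could not be settled from this table. Differences between genotype and between cell identity cannot be told apart here, and every S127A value below is that of the libraries so labelled. The part of these identity genes in the differences was not tested.

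The test took in 38 of the 69 members, those with a mean of at least 1 TPM. In S127A 21 of the 38 rose and 14 fell, so 92.1% changed, against 90.0% of all tested genes. That share is close to the background and is not a result about these genes. How many of all tested genes had groups that did not overlap was not counted. A lack of overlap, given below for single genes, therefore does not set them apart. Higher calls made up 55.3% of the tested members against 40.2% of all tested genes, and lower calls 36.8% against 49.8%. The median log2 change was 0.25 over the members and −0.12 over all tested genes. At least 2-fold, 42.1% of the tested members changed, against 35.4% of all tested genes, with 8 higher (21.1%, against 15.5%) and 8 lower (21.1%, against 19.9%). The 69 genes together held 10114, 10451 and 10276 TPM in S127A libraries, against 11070, 11089 and 10943 TPM in WT libraries. The summed level thus differed little, and the members exchanged places within it.

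**Figure D1:**
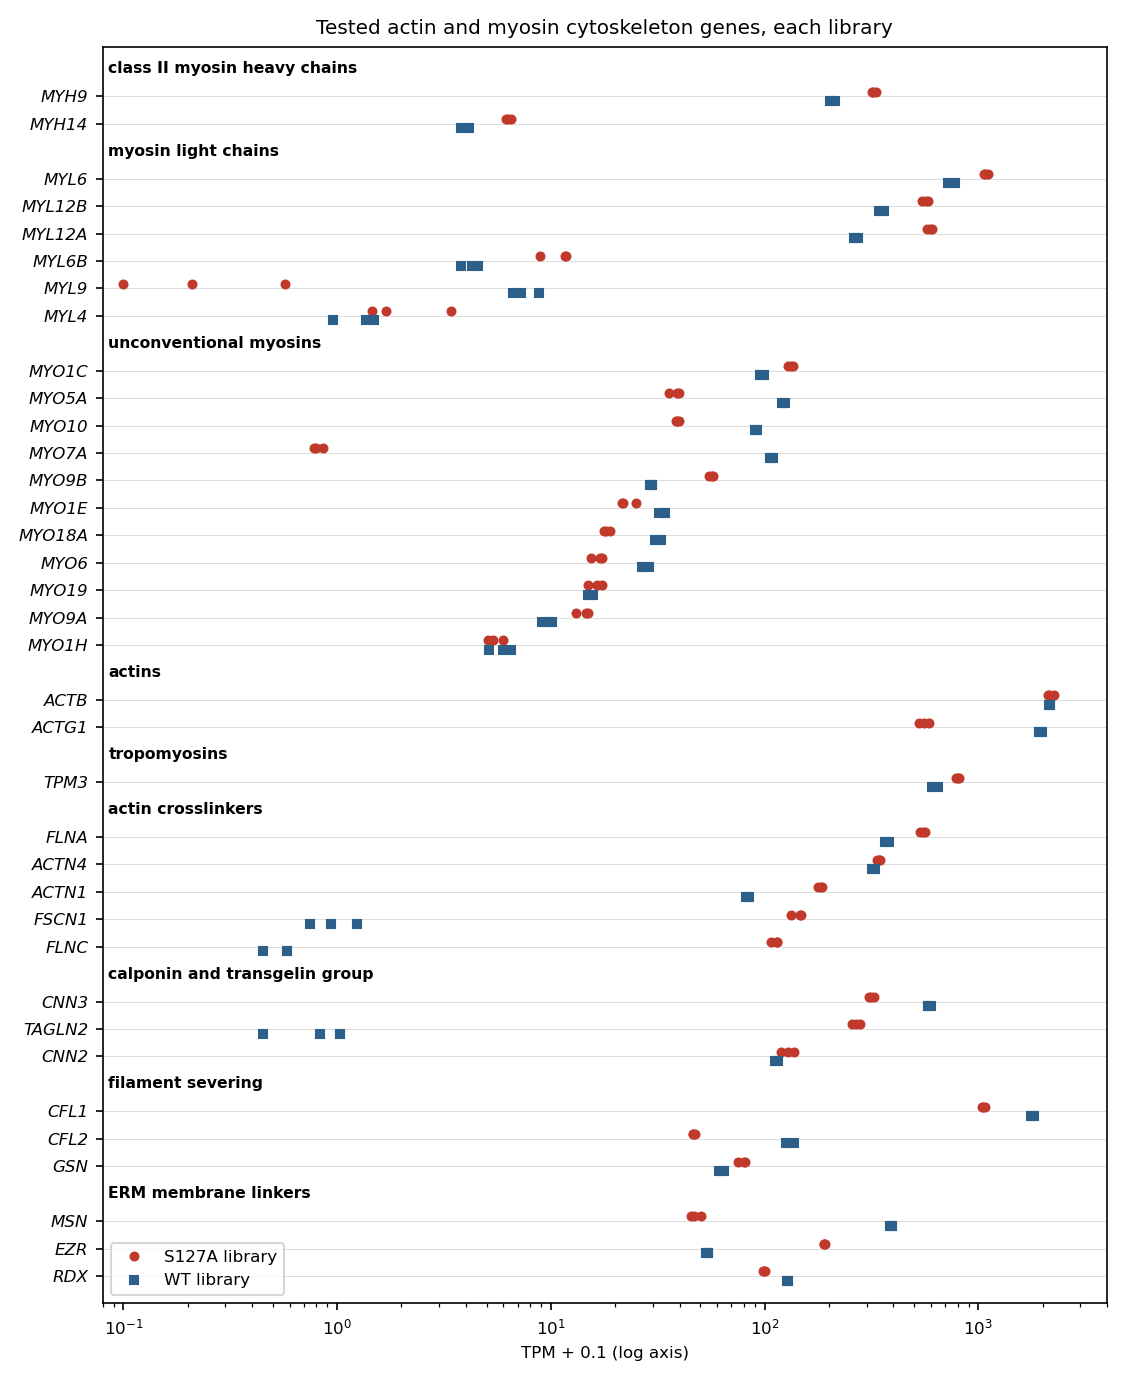
TPM + 0.1 on a log axis for each of 36 tested members, by role, with S127A libraries as red circles and WT libraries as blue squares. FSCN1, FLNC and TAGLN2 sit above 100 TPM in S127A and near or below 1 TPM in WT, MYO7A sits below 1 TPM in S127A and above 100 TPM in WT, and the ACTB groups overlap.

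**Figure D2:**
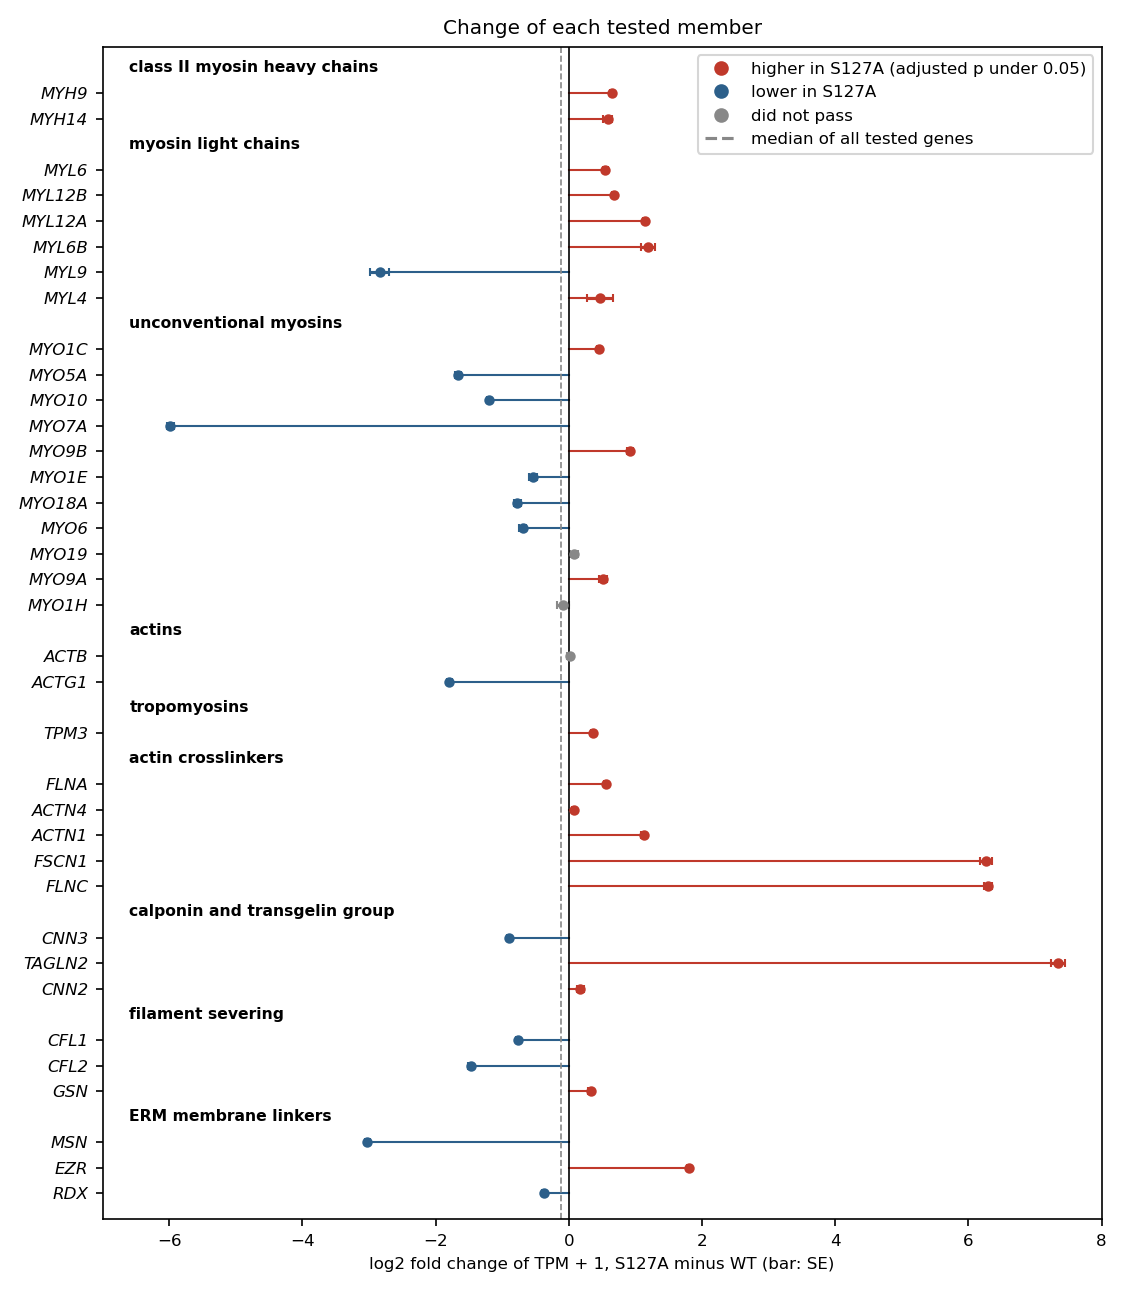
Log2 fold change of TPM + 1, S127A minus WT, with its SE, for the same 36 genes. The crosslinkers drawn lie right of 0, up to 6.30 for FLNC, and MYO7A lies farthest to the left of those drawn, at −5.99.

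Both tested heavy chains of myosin II rose in S127A, and of 6 tested light chains 5 rose, MYL4 only narrowly, and 1 fell. Of all tested genes 40.2% were called higher and 49.8% lower. MYH9, the heavy chain of non-muscle myosin IIA (chromosome 15, 77760587 to 77842175, minus strand, mm10), had 319, 320.3 and 333 TPM in S127A libraries, against 202, 214 and 203 TPM in WT libraries. The groups did not overlap, and the log2 change was 0.65 (SE 0.0323, adjusted p = 5.79e-09). MYH9 supplied 98.0% ± 0.057 of the TPM of the 3 non-muscle heavy chains in S127A and 98.1% ± 0.132 in WT (SD, n = 3), so its lead over its paralogues was alike. MYH14, the myosin IIC heavy chain, had 6.22, 6.06 and 6.40 TPM in S127A, against 4.02, 3.70 and 3.76 TPM in WT (log2 change 0.58, adjusted p = 5.82e-06). MYH10, the myosin IIB heavy chain, stayed below 1 TPM in every library.

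MYL6, the essential light chain of non-muscle and smooth muscle myosin, was the most abundant light chain. It had 1065, 1071 and 1112 TPM in S127A libraries, against 731, 777 and 718 TPM in WT libraries (log2 change 0.55, SE 0.0345, adjusted p = 4.56e-08). Its paralogue MYL6B had 11.5, 11.7 and 8.84 TPM in S127A, against 4.18, 3.69 and 4.48 TPM in WT, and neither pair of groups overlapped. The promoter window of MYL6 at the more downstream of its RefSeq starts is shown because it holds a CArG box, the element bound by serum response factor (SRF), which controls many genes of this family. It comes from RefSeq (GRCm38.p6, chr10:128492960-128493259, minus strand) and runs 5′ to 3′ from 250 bases before the gene start to 50 after, with the CArG box in capitals starting 50 bases before the start. The window at the more upstream start of MYL6 held no CArG box.
Myl6: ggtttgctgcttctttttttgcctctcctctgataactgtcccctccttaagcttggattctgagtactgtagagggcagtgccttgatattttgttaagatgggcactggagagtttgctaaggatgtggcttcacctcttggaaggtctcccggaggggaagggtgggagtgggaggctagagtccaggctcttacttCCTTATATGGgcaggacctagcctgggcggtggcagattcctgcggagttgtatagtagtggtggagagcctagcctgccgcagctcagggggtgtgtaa

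The regulatory light chains are the subunits whose phosphorylation activates the motor. MYL12A had 594, 608 and 573 TPM in S127A libraries, against 274, 266 and 262 TPM in WT libraries (log2 change 1.14, SE 0.0315, adjusted p = 3.71e-11). MYL12B had 584, 568 and 543 TPM in S127A, against 361, 343 and 356 TPM in WT (log2 change 0.68, SE 0.0344, adjusted p = 6.85e-09). Both stood clear of WT in every library. They neighbour each other on chromosome 17, and their open reading frames of 519 bases are identical at 96.5% of positions, with a longest shared run of 105 bases, so how reads were split between them is uncertain. Their sum with MYL9 is less open to that split and was 1157 ± 35.3 TPM in S127A and 628 ± 14.3 TPM in WT.

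MYL9, the regulatory light chain typical of smooth muscle, went the other way. It was listed at 0, 0.11 and 0.47 TPM in S127A libraries, against 8.71, 7.18 and 6.56 TPM in WT libraries (log2 change −2.84, SE 0.141, adjusted p = 5.63e-09). MYL4, an essential light chain of embryonic and atrial muscle, overlapped between groups at 1.35, 3.32 and 1.59 TPM in S127A and 0.86, 1.26 and 1.38 TPM in WT. Its call was narrow (log2 change 0.46, adjusted p = 0.0449) and rested on S127A replicate 2, without which the change was 0.20 (adjusted p = 0.153). It was also lost without any single WT replicate, and over 17 alternatives its adjusted p ran from 0.000946 to 0.162.

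Of 24 listed unconventional myosins 12 were tested, of which 3 rose, 7 fell and 2 did not pass. Over all tested genes 49.8% were called lower, so a count of 7 in 12 lies near the background. Their summed level was 363 ± 4.79 TPM in S127A and 641 ± 4.96 TPM in WT. MYO7A, a motor of hair cell stereocilia and of melanosomes in the retinal pigment epithelium (chromosome 7, 98051060 to 98119524, minus strand), had 0.70, 0.76 and 0.68 TPM in S127A libraries, against 106, 109 and 107 TPM in WT libraries. The log2 change was −5.99 (SE 0.0519, adjusted p = 1.2e-14). MYO7A was thus below 1 TPM in every S127A library and above 100 TPM in every WT library.

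MYO5A, the melanosome motor (chromosome 9, 75071015 to 75223688, plus strand), had 39.7, 35.5 and 38.8 TPM in S127A libraries, against 122, 125 and 120.0 TPM in WT libraries (log2 change −1.66, SE 0.0446, adjusted p = 3e-11). S127A thus kept 0.311 of the WT level, with no overlap. The other parts of its tether kept far less. Melanophilin (MLPH) had 0.78, 0.90 and 0.74 TPM in S127A, against 111, 114 and 107 TPM in WT, and RAB27A had 0.48, 0.29 and 0.44 TPM in S127A, against 115, 115 and 109 TPM in WT. The log2 changes were −5.95 (SE 0.0572, adjusted p = 1.87e-14) for MLPH and −6.35 (SE 0.0659, adjusted p = 2.81e-14) for RAB27A. In WT libraries the motor, the adaptor and the GTPase all lay between 107 and 125 TPM, whereas in S127A libraries both partners were below 1 TPM.

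MYO7A is shown by the RefSeq promoter window (GRCm38.p6, chr7:98109199-98109498, minus strand) that holds CATGTG, an E-box bound by MITF and related factors. It lies there, in capitals as its reverse complement CACATG, at 139 and at 110 bases before the start. That start is inside the annotated gene, and the RefSeq window at the upstream start held none of the motifs searched. MITF itself, the melanocyte master factor, was at 8.17 ± 0.487 TPM in S127A and 143 ± 9.67 TPM in WT. The part of MITF in the level of MYO7A was not tested. ACTN1 and GSN, which also hold CATGTG in a window, were called higher in S127A.
Myo7a: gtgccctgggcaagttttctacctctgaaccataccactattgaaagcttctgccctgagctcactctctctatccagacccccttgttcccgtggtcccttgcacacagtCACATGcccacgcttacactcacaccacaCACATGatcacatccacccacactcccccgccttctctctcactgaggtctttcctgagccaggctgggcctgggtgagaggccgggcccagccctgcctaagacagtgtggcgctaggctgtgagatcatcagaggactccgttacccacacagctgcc

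Among the remaining unconventional myosins the changes were smaller. MYO10, the motor of filopodial tips, had 38.3, 39.7 and 39.0 TPM in S127A libraries, against 91.8, 91.1 and 90.0 TPM in WT libraries (log2 change −1.20, SE 0.0341, adjusted p = 4.76e-11). MYO6, which moves towards the minus end of filaments in endocytosis, MYO18A, a myosin of Golgi membranes, and MYO1E, a class I motor of endocytic and adhesive structures, fell by 0.70, 0.77 and 0.54 on the log2 scale. MYO1C, a class I motor of exocytosis and membrane tension, rose and was the leading unconventional myosin of S127A, with 129, 135 and 133 TPM against 97.1, 94.6 and 98.8 TPM in WT (log2 change 0.45, SE 0.0329, adjusted p = 1.71e-07). It made up 36.5% ± 0.46 of the summed TPM of this class in S127A and 15.1% ± 0.382 in WT. MYO9B and MYO9A, motors that carry a domain that inactivates small GTPases, rose by 0.92 and 0.51 on the log2 scale. MYO19, the motor of mitochondria, had 16.2 ± 1.23 TPM in S127A and 15.2 ± 0.42 TPM in WT (log2 difference 0.08, adjusted p = 0.234). TMM scaling brought MYO19 past the threshold, at 0.19 (adjusted p = 0.0123), as did quantile normalization, at 0.18 (adjusted p = 0.0161), and leaving out S127A replicate 1, at 0.14 (adjusted p = 0.0447). Over 18 alternatives its adjusted p from limma ran from 0.0123 to 0.633. MYO1H had 5.37 ± 0.433 TPM in S127A and 5.76 ± 0.713 TPM in WT (log2 difference −0.08, adjusted p = 0.387), and the sign of that difference turned with TMM factors and with quantile normalization.

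The cytoplasmic actins separated. ACTB (β-actin, chromosome 5, 142903115 to 142906754, minus strand) was the most abundant member in both genotypes, with 2118, 2260.0 and 2151 TPM in S127A libraries, against 2172, 2161 and 2151 TPM in WT libraries. The groups overlapped and the log2 difference of 0.01 did not pass (SE 0.0303, adjusted p = 0.772). TMM scaling gave 0.13 (limma p, adjusted, 0.0025), a common total 0.06 (0.0625) and quantile normalization −0.29 (2.96e-06), with adjusted p-values from 2.96e-06 to 0.876 over 18 alternatives. No direction can therefore be given for ACTB. ACTG1 (γ-actin, chromosome 11, 120345690 to 120348542, minus strand) had 529.8, 588 and 559 TPM in S127A, against 1932, 1977 and 1928 TPM in WT. The log2 change was −1.80 (SE 0.0371, adjusted p = 3.48e-12), and its rank among the 69 members was 7 in S127A and 2 in WT. ACTG1 made up 20.4% ± 0.36 of the cytoplasmic actin TPM in S127A and 47.4% ± 0.367 in WT. The summed TPM of both was 2735 ± 102 in S127A and 4107 ± 29.2 in WT. Their open reading frames of 1128 bases are identical at 88.7% of positions, with a longest shared run of 62 bases, and both have processed pseudogenes, so part of the split depends on how reads were assigned.

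The ACTG1 promoter window from RefSeq (GRCm38.p6, chr11:120348446-120348745, minus strand) is shown as that of the actin that fell. It holds a CArG box starting 90 bases before the gene start and CACGTG, an E-box, starting 141 bases before it, both in capitals. MYL6, which rose, and ACTG1, which fell, thus both carry a CArG box in the windows shown. MYL6 carries it only at the more downstream of its starts. SRF itself had 22.4, 24.8 and 24.2 TPM in S127A libraries, against 36.1, 36.6 and 38.8 TPM in WT libraries (log2 change −0.62, SE 0.051, adjusted p = 4.42e-07).
Actg1: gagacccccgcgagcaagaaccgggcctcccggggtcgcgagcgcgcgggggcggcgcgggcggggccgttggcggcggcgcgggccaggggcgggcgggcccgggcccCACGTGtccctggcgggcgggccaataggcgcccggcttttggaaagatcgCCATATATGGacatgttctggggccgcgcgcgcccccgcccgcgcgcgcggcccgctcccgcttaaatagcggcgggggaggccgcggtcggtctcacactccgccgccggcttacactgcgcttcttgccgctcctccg

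The muscle actins ACTA1, ACTA2, ACTC1 and ACTG2 were not tested, with means of 0.05 to 0.59 TPM in S127A and 0.0633 to 0.923 TPM in WT. The same held for the sarcomeric heavy chains MYH2, MYH3, MYH6, MYH7, MYH8, MYH13 and MYH15, the smooth muscle heavy chain MYH11, calponin 1 (CNN1), the sarcomeric α-actinin ACTN2 and the light chains MYL1, MYL2 and MYL10. Of the 31 untested members 29 were below 1 TPM in every library, and the highest single value among the 31 was 1.64 TPM. Markers of striated muscle outside the list moved in S127A all the same. Cardiac troponin T (TNNT2) had 30.1, 35.0 and 36.3 TPM in S127A libraries, against 0, 0.32 and 0.11 TPM in WT libraries, and the troponin C gene TNNC1 had 5.89 ± 1.23 TPM in S127A and 0.06 ± 0.104 TPM in WT. The other 4 striated muscle markers read here (MYOG, CKM, TNNI2 and MB) had means of 0.23 TPM or less in both groups. Among smooth muscle markers SMTN rose and DES and LMOD1 fell. The 6 listed markers summed to 57.9 to 64.5 TPM in S127A, nearly all of it SMTN (60.2 ± 3.64 TPM), and 29.5 to 31.2 TPM in WT. Of the brush border myosin MYO1A, also untested, S127A libraries held 1.33, 1.63 and 1.32 TPM and WT libraries 0.35, 0.21 and 0.29 TPM.

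**Figure D3:**
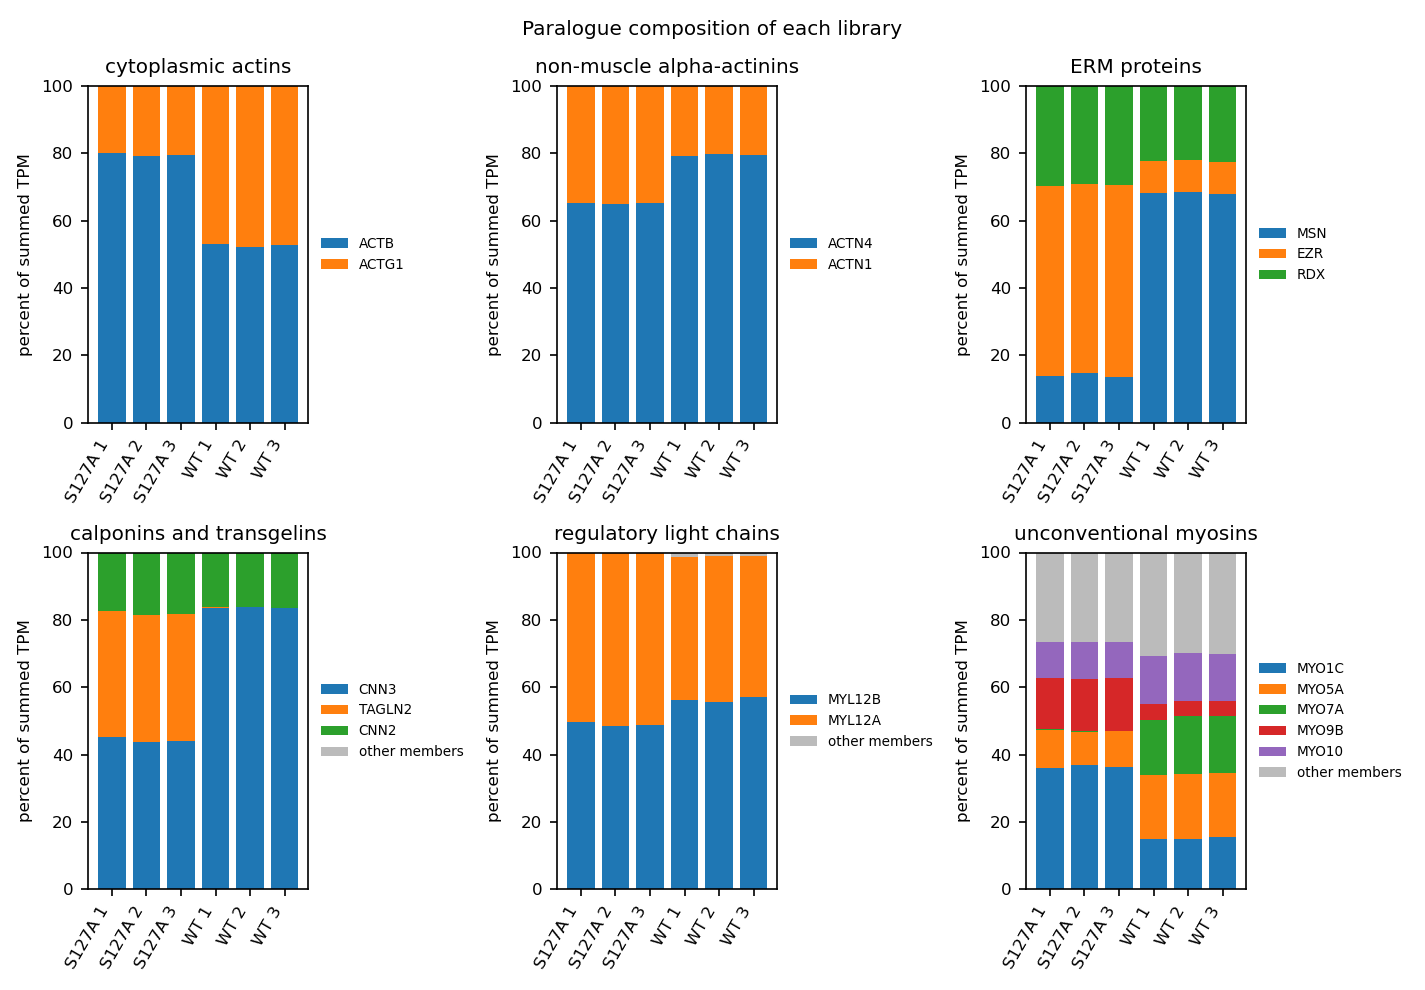
Percent of the summed TPM of 6 families held by each member, as stacked bars, in the 3 S127A and the 3 WT libraries. ACTG1 fills 20.4% of the cytoplasmic actins in S127A and 47.4% in WT, and EZR fills 56.6% of the ERM family in S127A and 9.39% in WT.

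Of the tropomyosins, which wrap filaments and gate the access of myosin and cofilin, TPM3 was analysed here. It had 811, 783 and 807 TPM in S127A libraries, against 611, 609 and 648 TPM in WT libraries, with no overlap (log2 change 0.36, SE 0.0318, adjusted p = 8e-07). The other tropomyosin genes were not analysed here.

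Filament crosslinkers rose without exception among those tested, 6 of 6, ACTN4 only narrowly, and 4 of them at least 2-fold. Of all tested genes 40.2% were called higher, and 15.5% at least 2-fold higher. The muscle filamin FLNC (chromosome 6, 29433256 to 29461883, plus strand) had 107, 114 and 115 TPM in S127A libraries, against 0.48, 0.35 and 0.48 TPM in WT libraries. Fascin (FSCN1), the bundler of filopodia and invasive protrusions (chromosome 5, 142960343 to 142973185, plus strand), had 133, 147 and 147 TPM in S127A, against 0.84, 1.14 and 0.65 TPM in WT. Both genes were thus close to 0 in every WT library and above 100 TPM in every S127A library. The log2 changes were 6.30 for FLNC (SE 0.0608, adjusted p = 1.9e-14) and 6.26 for FSCN1 (SE 0.0884, adjusted p = 2.06e-13).

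The widely expressed crosslinkers described here rose less. FLNA, the main filamin of most cells, had 532, 552 and 563 TPM in S127A, against 366, 382 and 373 TPM in WT (log2 change 0.55, SE 0.031, adjusted p = 1.55e-08). Of the non-muscle α-actinins, which anchor stress fibres, ACTN1 had 179, 185 and 184 TPM in S127A, against 84.6, 83.7 and 81.6 TPM in WT (log2 change 1.12, SE 0.0312, adjusted p = 3.97e-11). ACTN4 had 335, 344 and 347 TPM in S127A, against 324, 329 and 318 TPM in WT. Its groups stood just apart (log2 change 0.08, SE 0.028, adjusted p = 0.0204), and the call was lost with no mean-variance trend (adjusted p = 0.0748), without S127A replicate 2 (0.0573) or 3 (0.0777) and without WT replicate 3 (0.0721), with an adjusted p from 5.32e-05 to 0.0777 over 18 alternatives.

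The calponin and transgelin group, small proteins that bind along filaments, kept its summed level and changed its makeup. The sum was 712 ± 29.9 TPM in S127A and 701 ± 12.7 TPM in WT. TAGLN2 (transgelin 2, chromosome 1, 172500047 to 172507380, plus strand) had 256, 279.9 and 268 TPM in S127A libraries, against 0.93, 0.35 and 0.73 TPM in WT libraries. The log2 change was 7.35 (SE 0.108, adjusted p = 2.69e-13), and TAGLN2 held rank 12 of the members in S127A and 39 in WT. CNN3, the acidic calponin, had 307, 324 and 314 TPM in S127A, against 599, 582 and 579 TPM in WT (log2 change −0.89, SE 0.0298, adjusted p = 1.83e-10). CNN2 differed little, at 119, 137 and 129 TPM in S127A and 116, 112 and 113 TPM in WT (log2 change 0.17, adjusted p = 0.00542). CNN3 made up 44.3% ± 0.705 of the group's TPM in S127A and 83.6% ± 0.152 in WT, and TAGLN2 37.6% ± 0.126 in S127A and 0.095% ± 0.041 in WT. TAGLN, the smooth muscle transgelin, was not tested and stayed below 1 TPM in every library.

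The promoter window of Tagln2 from RefSeq (GRCm38.p6, chr1:172499996-172500295, plus strand) is shown for the member with the largest rise. It holds GGAATG, the core of the element bound by TEAD factors, in capitals as its reverse complement CATTCC, at 118 and at 80 bases before the start. It holds no CArG box.
Tagln2: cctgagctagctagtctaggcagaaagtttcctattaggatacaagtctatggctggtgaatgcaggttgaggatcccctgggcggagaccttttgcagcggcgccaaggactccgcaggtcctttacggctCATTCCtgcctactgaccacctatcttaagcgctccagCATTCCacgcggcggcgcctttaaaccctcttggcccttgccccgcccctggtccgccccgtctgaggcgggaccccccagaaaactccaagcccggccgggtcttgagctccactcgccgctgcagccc

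Both cofilins, which sever and depolymerise filaments, fell, and gelsolin, a calcium-dependent severing and capping protein, rose. CFL1 had 1055, 1073 and 1044 TPM in S127A libraries, against 1822, 1794 and 1765 TPM in WT libraries (log2 change −0.76, SE 0.0265, adjusted p = 2.65e-10). CFL2, the muscle-type cofilin, had 46.3, 46.1 and 47.1 TPM in S127A, against 137, 129 and 126 TPM in WT (log2 change −1.47, SE 0.038, adjusted p = 2.15e-11). Gelsolin (GSN) had 75.0, 80.1 and 80.6 TPM in S127A, against 62.1, 60.8 and 64.2 TPM in WT (log2 change 0.33, SE 0.04, adjusted p = 1.41e-05). No pair of groups overlapped, where 90.0% of all tested genes were called. Destrin (DSTN), the third protein of the cofilin family and no member of the list, had 375, 374 and 354 TPM in S127A, against 196, 176 and 192 TPM in WT, and rose by 0.96 on the log2 scale. It was chosen after its values were seen.

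The linkers of filaments to the plasma membrane exchanged their order. Moesin (MSN, chromosome X, 96096042 to 96168552, plus strand) had 46.4, 50.05 and 45.0 TPM in S127A libraries, against 393, 396 and 385 TPM in WT libraries (log2 change −3.03, SE 0.0401, adjusted p = 1.32e-13). Ezrin (EZR, chromosome 17, 6738041 to 6782784, minus strand), the linker typical of epithelia, had 189.7, 192 and 190.1 TPM in S127A, against 54.1, 54.0 and 53.4 TPM in WT (log2 change 1.81, SE 0.0295, adjusted p = 5.53e-13). Radixin (RDX) had 99.4, 100.1 and 98.2 TPM in S127A, against 128.66, 127.27 and 128.9 TPM in WT (log2 change −0.37, SE 0.0291, adjusted p = 3.31e-07). None of the 3 overlapped between genotypes, though 90.0% of all tested genes were called. EZR made up 56.6% ± 0.447 of the family in S127A and 9.39% ± 0.029 in WT, and MSN 14.0% ± 0.571 in S127A and 68.2% ± 0.36 in WT. The epithelial keratin KRT18 was at 62.8 ± 0.362 TPM in S127A and 0.09 ± 0.09 TPM in WT, whereas the epithelial cadherin CDH1 was below 0.2 TPM in every library. The part of either in the level of EZR was not tested.

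The Ezr promoter window from RefSeq (GRCm38.p6, chr17:6782731-6783030, minus strand) holds TGANTCA, the pattern searched for the AP-1 element. It reads TGACTCA there, in capitals, starting 32 bases before the gene start. The window is shown as that of the linker that rose.
Ezr: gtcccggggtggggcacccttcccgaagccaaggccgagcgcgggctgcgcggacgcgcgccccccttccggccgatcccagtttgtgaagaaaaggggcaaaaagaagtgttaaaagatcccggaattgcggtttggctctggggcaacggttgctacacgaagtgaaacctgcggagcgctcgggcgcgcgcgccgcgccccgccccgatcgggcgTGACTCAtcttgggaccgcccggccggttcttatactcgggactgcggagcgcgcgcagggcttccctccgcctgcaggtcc

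Promoter windows of RefSeq (250 bases before to 50 after a start) were matched to 58 members, some with several starts, for 74 windows in all. A CArG box on either strand was found in 8 of the 74 windows, against 1.63% of all 32851 windows of that length, and the 8 genes were ACTA1, ACTC1, ACTG1, CNN2, MYH13, MYL6, MYL9 and MYO1E. Among the 5 of these that were tested CNN2 and MYL6 rose and ACTG1, MYL9 and MYO1E fell, so the box went with both directions. GGAATG was found in 17 windows (14.7% of all windows hold it), CATGTG in 4 (14.2%), CACGTG in 5 (7.15%) and TGANTCA in 6 (7.81%), each counted on both strands, and no matches overlapped each other. The tested members with TGANTCA, where N is any base, were ACTN4, EZR, MYL6B, MYL12A and MYO1C. ACTN4 held TGAATCA, whereas EZR, MYL6B, MYL12A and MYO1C held TGACTCA or TGAGTCA. All 5 were called higher in S127A, ACTN4 only narrowly, where 55.3% of the tested members and 40.2% of all tested genes were called higher. The other motifs went with both directions. GGAATG was held by 6 genes called higher and 2 called lower, CATGTG by 2 and 1, and CACGTG by 1 and 3. The part of any motif in these changes was not tested. A match is a run of letters and not a bound site.

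The wider machinery that builds and steers actin filaments was read from a list of 82 genes outside the members. Of these, 67 could be read here and 64 were tested. In S127A 24 rose (37.5%, against 40.2% of all tested genes) and 36 fell (56.2%, against 49.8%), with a median log2 change of −0.23. With TMM factors 26 rose and 31 fell, and with quantile normalization 27 rose and 31 fell. The Arp2/3 complex, which nucleates branched filaments, was mixed, with 3 of 9 subunits higher and 5 lower. ARPC3 had 162 ± 4.81 TPM in S127A and 412 ± 5.59 TPM in WT. ARPC1B had 742, 804 and 764 TPM in S127A libraries, against 401, 417 and 420.1 TPM in WT libraries. Of 11 listed formins, which elongate unbranched filaments, 6 could be read and 5 were tested, of which 4 fell. DAAM1 had 14.5 ± 0.345 TPM in S127A and 63.7 ± 2.22 TPM in WT, and DAAM2 had 0.193 ± 0.0808 TPM in S127A and 11.4 ± 0.451 TPM in WT. INF2 was the formin that rose (log2 change 1.24, adjusted p = 1.34e-09).

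Of the WASP and WAVE regulators, which switch on Arp2/3, 8 of 11 tested genes fell and 3 rose. The largest falls were in CYFIP2 and WASF1, subunits of the WAVE complex of the leading edge. CYFIP2 had 0.123 ± 0.0416 TPM in S127A and 24.8 ± 0.84 TPM in WT, and WASF1 had 1.12 ± 0.288 TPM in S127A and 28.6 ± 1.29 TPM in WT. Their relatives CYFIP1 and WASF2, chosen after their values were seen, stood at 89.2 ± 0.52 and 75.1 ± 0.637 TPM in S127A and 118 ± 2.49 and 60.5 ± 0.949 TPM in WT. Proteins of filament ends and turnover rose for 10 of 17 and fell for 7. The pointed-end cap TMOD1 had 0.17, 0.24 and 0.44 TPM in S127A libraries, against 75.2, 70.0 and 67.0 TPM in WT libraries (log2 change −5.81, SE 0.0839, adjusted p = 2.38e-13). ENAH, a protein that speeds barbed-end growth, had 7.86, 8.11 and 8.04 TPM in S127A libraries, against 61.0, 59.3 and 56.9 TPM in WT libraries. The barbed-end cap CAPG, chosen after its values were seen, had 560.0 ± 15.1 TPM in S127A and 130.4 ± 4.13 TPM in WT.

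Genes of GTPase control and myosin activation went both ways, with 6 of 16 higher, 8 lower and 2 that did not pass. RHOB had 36.9 ± 0.297 TPM in S127A and 112 ± 2.36 TPM in WT. The myosin light chain kinase MYLK had 6.46, 6.37 and 6.37 TPM in S127A libraries, against 20.6, 22.1 and 19.2 TPM in WT libraries (log2 change −1.55, SE 0.0613, adjusted p = 7.97e-10). Of the regulatory light chains, which it phosphorylates, MYL12A and MYL12B were higher in the same libraries and MYL9 was lower. PPP1R12A, the targeting subunit of the myosin phosphatase, had 99.1 ± 2.26 TPM in S127A and 42.5 ± 0.632 TPM in WT, and RHOC had 745 ± 22.3 TPM in S127A and 258 ± 18.3 TPM in WT, both chosen after their values were seen. ROCK1, a kinase that promotes myosin contraction, had 31.4 ± 1.11 TPM in S127A and 31.9 ± 0.731 TPM in WT (log2 difference −0.02, SE 0.0439, adjusted p = 0.666). Its paralogue ROCK2, chosen after its values were seen, fell, with 70.7 ± 1.06 TPM in S127A and 101 ± 3.62 TPM in WT (log2 change −0.51, SE 0.0361, adjusted p = 1.16e-07). Plectin (PLEC), which joins actin to intermediate filaments, had 195, 199.7 and 209 TPM in S127A, against 18.5, 18.4 and 18.5 TPM in WT (log2 change 3.37, SE 0.0368, adjusted p = 3.85e-14). The spectrin SPTBN1 had 94.6 ± 1.81 TPM in S127A and 107 ± 0.367 TPM in WT, and this fall (log2 change −0.18, adjusted p = 2.1e-04) lost its call under TMM scaling, at 0.0807, and under quantile normalization, at 0.0965.

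**Figure D4:**
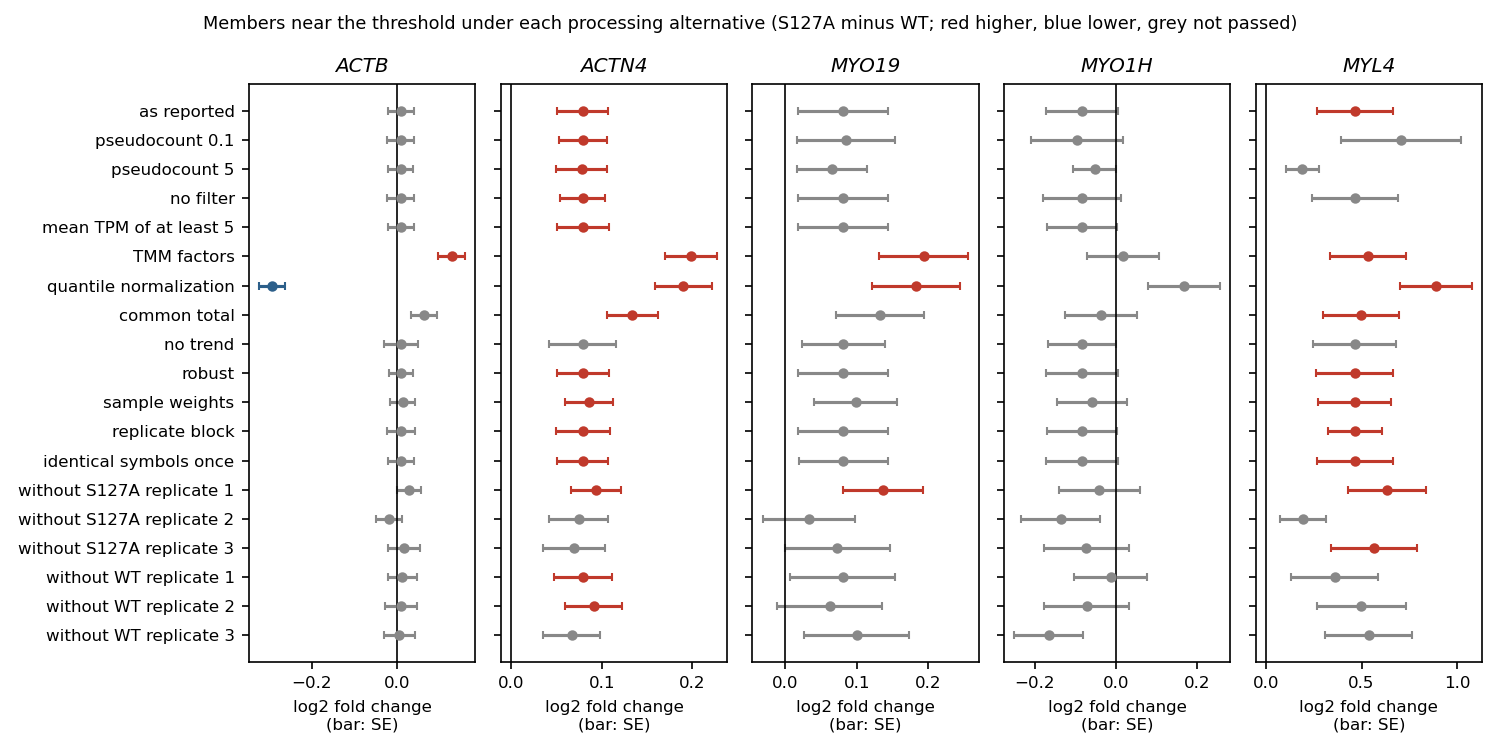
Log2 fold change with its SE, S127A minus WT, of ACTB, ACTN4, MYO19, MYO1H and MYL4 under each processing alternative, from top to bottom. Points are red where higher in S127A, blue where lower and grey where the adjusted p was not under 0.05, and ACTB runs from −0.29 with quantile normalization to 0.13 with TMM factors.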

How the data were processed

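RNA-seq of 3 S127A and 3 WT libraries was read from the table that the authors deposited, which gives TPM per gene symbol, per the file headers. Reads were placed on mm10 (per the submitters' processing notes), while the sources used here name no aligner, quantifier or annotation. Library depth cannot be read back from TPM, so errors are those between replicates. The table columns summed to 830745 to 864529 TPM. Genes with a mean of at least 1 TPM were tested by limma 3.58.1 (R 4.3.3) after adding a pseudocount of 1 and taking log2 (mean-variance trend, two-sided, genotype as the only term, Benjamini-Hochberg adjustment over 10348 genes, threshold 0.05). At least 2-fold means an absolute log2 change of 1 or more. Tested on simulated data, S127A against WT with 9723 genes, the fit called 92.93% of genes changed by 0.5 and 100.0% of those changed by 1. It called 0.04% of the unchanged genes, which were 9524 of the 9723. In the libraries read here 90.0% of all tested genes were called. The rate of calls among unchanged genes with so many changes was not tested. Results of 2 tested members are not reported here, though the counts include them. Members and lists were chosen with earlier results of these data known. Values in every library were given for the tested members of each role with the largest changes (up to 4, with at least 5 TPM in a group) and the highest means (up to 2), and for pathway genes for the 2 largest called changes per subgroup, by mean or library. Alternatives were other pseudocounts and filters, TMM factors (unweighted, on TPM), quantile normalization, a common total, other variance settings, sample weights, a replicate block, identical symbols counted once, and leaving out each library. Shares were computed with pandas 2.3.3 under Python 3.11.15 and drawn with matplotlib 3.10.9.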

Additional observations from a re-analysis of the deposited data

How the results depend on the processing

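Over 18 alternatives the number of members called higher in S127A ran from 19 to 27 and lower from 13 to 16, against 21 and 14 as reported, and at least 2-fold from 7 to 9 higher and from 7 to 8 lower, against 8 each. Leaving out each library in turn gave 9123 to 9211 called genes in the whole table, against 9315. Of the 38 tested members 34 kept their direction and their side of the threshold in every alternative that could test them, apart from the sign of MYO1H, which did not pass in any. The exceptions were ACTB, which turned to −0.29 with quantile normalization and passed there and with TMM factors, MYO19, which passed in 3 alternatives, and ACTN4 and MYL4, which lost their calls in 4 of 18 and 8 of 17. The causes were not tested. TMM factors moved the median log2 change of all tested genes to −0.0022, against −0.12 as reported, and the share of higher calls to 49.9%, against 44.7%. Same-numbered libraries of the groups correlated in their deviations from the group means at 0.117, 0.017 and 0.028, and S127A replicate 2 correlated best with WT replicate 3, so the numbers were not taken to pair the samples. With a replicate block 9339 genes were called in all, and 21 members were higher and 14 lower. TPM without depth limits what can be said of the members near 0.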
